A study of Glycine max with 24 samples.

Results

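Soybean cotyledons and trifoliate leaves each pass from a young green organ to a yellowing one, and the whole-life changes of the organs were set against each other transcript by transcript. For each transcript, the change in cotyledon (C-III minus C-I) had the change in leaf (L-V minus L-I) subtracted from it, so that a positive difference means a higher change in cotyledon and a negative one a higher change in leaf. Transcripts were kept when their deposited value lay above the lowest value of the table in at least 3 of the 6 columns used in each organ. This left 52026 transcripts of 37639 genes, of 73320 transcripts of 54175 genes in the tables. A further 4505 transcripts met the condition in cotyledon only and 2795 in leaf only. The 5764 transcripts that just met it, with exactly 3 columns in an organ, had a median mean level of 3.15 normalized counts, and the 4301 that just missed it, with 2 columns, had 1.26.

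All plants were Williams-82 soybean grown in chambers under equal periods of light and dark. C-III cotyledons were taken 27 days after planting, when yellowing and shrinking began, and C-I cotyledons 4 days after planting, when they were green but still closed. L-V leaves were taken 7 weeks after the V3 stage by the labels (the study's methods place them 1 week later), when senescence was visible, and L-I leaves at V3, opened but not fully expanded. Each group held 3 libraries, each from 1 pair of cotyledons or 1 trifoliate. C-I seedlings grew on MS medium in closed boxes and the C-III plants in soil, so growth medium and age cannot be told apart in cotyledon. Cotyledon libraries were run on another instrument than leaf libraries and each organ was scaled in its own table, so organ and instrument cannot be told apart and only changes within an organ were compared between organs. Each sample was a whole organ, and fewer cells of a type and less RNA per cell cannot be told apart in it.

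As background, a soybean cotyledon opens as a seed store that turns green and then gives up its reserves to the seedling, while a trifoliate leaf grows, exports sugar and at last exports its nitrogen and minerals. Both ends of life involve dismantling of chloroplasts, breakdown of protein, and loading of amino acids, nitrate and other ions into the phloem. Transcription factors of the NAC and WRKY families are known in Arabidopsis to promote leaf senescence.

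Recovered reads per library ran from 1852184 to 20839594. Values are given as normalized counts (reads divided by the authors' size factor of the library) and changes as differences of log2(normalized count + 1), which understate changes of low transcripts. Replicate 1 of L-V and replicate 1 of L-I stood farthest from the other libraries of their groups, and without both, a setting chosen after seeing the data, 8041 differences were called in place of 6403. Annotated green-tissue transcripts (54) summed to 28257 to 32811 normalized counts in C-III and 109800 to 155894 in C-I, and to 21903 to 40822 in L-V and 144965 to 213249 in L-I. Those of growing tissue (15) summed to 27.1 to 55.8 in C-III and 783 to 955 in C-I, and to 28.8 to 46.1 in L-V and 1546 to 1787 in L-I. All 4 groups thus carried the markers of green tissue, and both marker lists were lower at the late stage of each organ.

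Changes in the organs ran broadly together, and a minority of transcripts differed between them. The difference was called for 6403 transcripts of 5817 genes (12.3%), by limma with an adjusted p (Benjamini-Hochberg) below 0.05 and an absolute difference over 1.5 log2. It was positive for 4056 (7.8% of those tested) and negative for 2347 (4.51%). With library quality weights 6649 were positive and 4470 negative. Where all 6 columns of each organ had to be above the minimum, 32222 transcripts were tested and 2373 were positive. In cotyledon 6689 transcripts (12.9%) rose and 7809 (15%) fell, and in leaf 5729 (11%) rose and 8990 (17.3%) fell, counts that the demand for all 6 columns lowered to 3404 and 3962 in cotyledon and 2595 and 3853 in leaf. Across the 52026 transcripts, which share libraries and are not independent, the changes correlated with r = 0.65 and rho = 0.59. No gene had called transcripts of both signs, although 452 genes had at least 2 called. Of the called differences, 2090 had at least 1 group with no library above 3 reads, where the size of the difference depends on the pseudocount.

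Positive differences were made more often by a leaf fall than by a cotyledon rise. Of the 4056, 2312 fell in leaf and 1778 rose in cotyledon, and 379 did both. Their median change was 1.23 log2 in cotyledon and -2.03 log2 in leaf. Of the 2347 negative differences, 1200 fell in cotyledon and 923 rose in leaf, and 86 did both. All 465 transcripts called in opposite directions also had a called difference, which such calls nearly ensure, since opposite changes add up in the difference. With all 6 columns demanded (32222 transcripts tested), 159 rose in cotyledon and fell in leaf and 40 did the reverse. By contrast 7810 transcripts were called in the same direction in both organs (3080 rises, 4730 falls), and the difference was called for 1147 of them (14.7%). Of 12667 transcripts called in 1 organ alone, the difference was called for 4136 (32.7%), so most calls found in 1 organ were not shown to differ from the other.

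**Figure D1:**
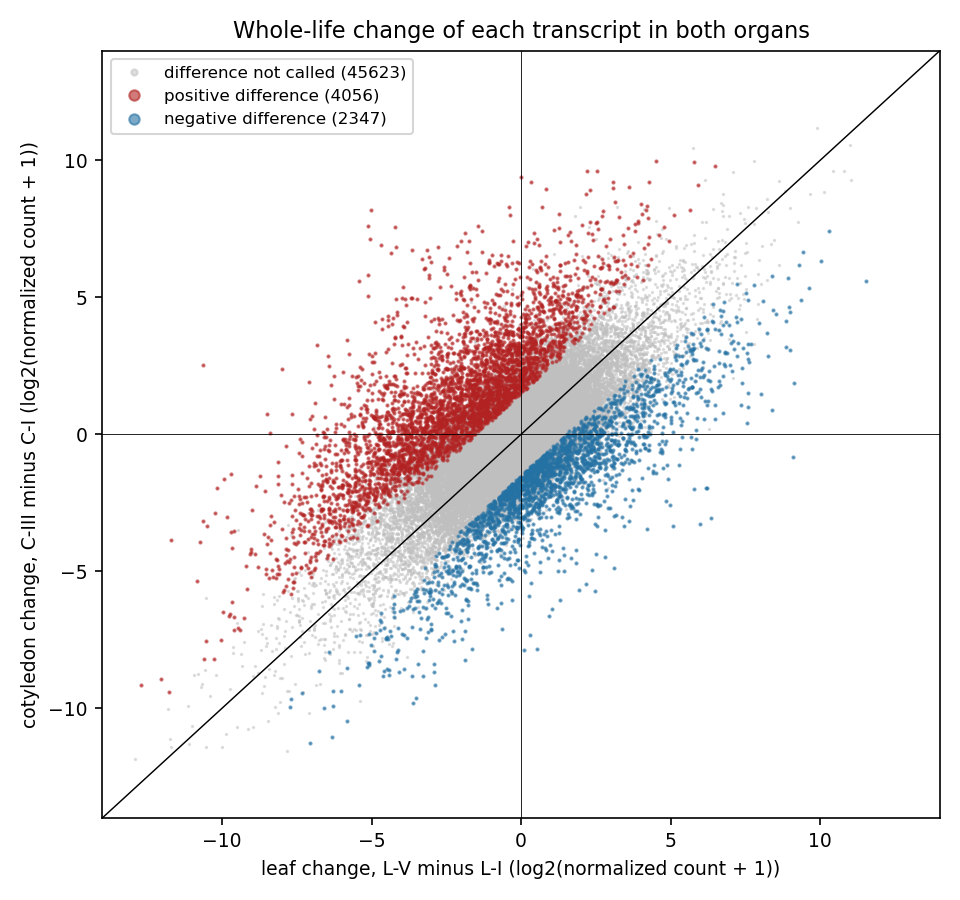
Each point is 1 of 52026 transcripts, with the leaf change (L-V minus L-I) on the x axis and the cotyledon change (C-III minus C-I) on the y axis, both as differences of log2(normalized count + 1). Red points are the 4056 called positive differences, blue points the 2347 called negative ones, and the diagonal marks equal change.

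Leading transcripts were ranked among annotated ones with at least 1 library above 3 reads in each group, a mean of at least 50 normalized counts in at least 1 group and no overlap of stages in at least 1 organ, so that larger differences of transcripts that failed these conditions (up to 11.02 log2 among proteases and -7.78 log2 among UDP-glycosyltransferases) are not among them. Most of the leading positive differences belonged to transcripts that rose in the aging cotyledon and fell in the aging leaf. An HSP20-like chaperone transcript (Glyma02g08980.2), of a family that holds unfolding proteins, had 763, 737 and 791 normalized counts in C-III, against 0, 5.27 and 9.23 in C-I. In leaf the same transcript had 0.891, 4.11 and 1.46 in L-V, against 59.7, 44.9 and 53.3 in L-I. The groups did not overlap in either organ, as held for 57% of transcripts in cotyledon and 44.1% in leaf. Its changes of 7.58 log2 in cotyledon and -4.21 log2 in leaf differed by 11.79 ± 0.92 (SE) log2 (limma, adjusted p = 3.25e-06, as for the values below).

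A transcript of the D-arabinono-1,4-lactone oxidase family (Glyma17g28450.2), enzymes that in yeast make a relative of vitamin C, had 7620.3, 6969 and 7854 normalized counts in C-III and 116, 192 and 168 in C-I. In leaf it had 7.13, 2.06 and 1.46 in L-V and 210.3, 139 and 164 in L-I. It was among the well-counted transcripts of the old cotyledon and close to the limit of detection in the old leaf. Its difference was 11.01 ± 0.52 (SE) log2 (adjusted p = 3.34e-08). A transcript of unknown function with a DUF679 domain (Glyma13g30840.1) had a like pattern, with 679.8, 722 and 1027 in C-III against 5.97, 5.27 and 8.83 in C-I. It had 5.35, 2.06 and 1.46 in L-V against 62.5, 33.4 and 41.4 in L-I and a difference of 10.36 ± 0.55 (SE) log2 (adjusted p = 8.31e-08).

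A peroxidase transcript (Glyma17g01720.1), of enzymes that oxidize substrates with hydrogen peroxide, rose in cotyledon and fell in leaf. It had 4656, 4073 and 5542 normalized counts in C-III and 478, 487 and 505 in C-I. It had 4.45, 10.3 and 19.04 in L-V and 1586, 879.9 and 1306 in L-I. The cotyledon therefore gained 3.27 log2 while the leaf changed by -6.83 log2, a difference of 10.10 ± 0.52 (SE) log2 (adjusted p = 6.81e-08).

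A transcript annotated as a cyclin-dependent kinase inhibitor of the SMR3 type (Glyma13g41050.1), of a family known in Arabidopsis to stop cells from dividing, had 942, 631 and 956 in C-III and 17.9, 42.2 and 18.1 in C-I. It had 28.5, 0 and 0 in L-V, where replicate 1 stood apart, and 193, 68.97 and 91.7 in L-I. Its difference was 10.18 ± 1.35 (SE) log2 (adjusted p = 0.000227). A transcript of the lipid transfer and 2S albumin family (Glyma20g28490.1) rose by 3.15 log2 in cotyledon and changed by -3.38 log2 in leaf. Another member of that family (Glyma06g07070.1) stayed low in cotyledon, with 21.3, 19.99 and 9.57 in C-III and 2.99, 4.39 and 3.21 in C-I, where its change of 1.92 log2 did not pass the test. It fell in leaf, with 7.13, 2.06 and 66.6 in L-V against 1634, 1475 and 1777 in L-I. Its difference was 9.02 ± 1.09 (SE) log2 (adjusted p = 0.00011). The other positive leaders, Glyma09g04161.1 and Glyma02g47310.1, have no annotated function, and both rose in cotyledon and fell in leaf, with differences of 8.96 and 8.96 log2.

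Several of the leading negative differences marked transcripts that were present at both ages in cotyledon and were gained late in leaf. Nicotianamine synthase 2 (Glyma19g41630.1), which makes the metal chelator that moves iron and zinc through the plant, had 739, 683 and 684 normalized counts in C-III and 322, 450.0 and 366 in C-I. In leaf it had 1209.8, 598 and 380.0 in L-V and 0, 6.27 and 0 in L-I. The leaf rose by 8.39 log2, the cotyledon change of 0.90 log2 did not pass the test, and the difference was -7.50 ± 0.86 (SE) log2 (adjusted p = 7.27e-05).

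Glutathione S-transferase TAU 8 (Glyma20g23420.1), of enzymes that attach glutathione to toxic compounds, behaved alike, with 1158, 1289 and 1630.4 in C-III and 731, 868 and 760.3 in C-I. Its leaf values were 546, 604 and 461 in L-V and 0, 16.7 and 5.92 in L-I, and the difference was -5.97 ± 0.96 (SE) log2 (adjusted p = 0.000976). A prenyl chain synthase transcript of the undecaprenyl pyrophosphate synthetase family (Glyma14g37190.1) went further, since it fell in cotyledon while it rose in leaf. It had 58.03, 83.9 and 94.1 in C-III and 313, 199 and 231 in C-I. It had 3032, 2529.7 and 1726 in L-V and 71.04, 96.1 and 66.1 in L-I. All L-V libraries lay far above all L-I libraries, and the difference was -6.57 ± 0.40 (SE) log2 (adjusted p = 2.71e-07).

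LOB domain protein 41 (Glyma08g48040.2), a transcription factor, fell in cotyledon and did not pass the test in leaf. It had 0, 6.11 and 0 in C-III and 355, 223 and 377 in C-I. It stayed low in leaf, with 3.56, 13.4 and 2.20 in L-V and 8.52, 1.05 and 4.93 in L-I. The difference was -7.63 ± 1.12 (SE) log2 (adjusted p = 0.000491), with 1 C-III library above 3 reads. The remaining negative leaders were an AP2-type (integrase-type) DNA-binding protein (Glyma02g07310.1, -5.92 log2), a dirigent-like protein (Glyma01g31750.1, -6.08 log2), a tetratricopeptide repeat protein (Glyma13g44210.1, -6.55 log2) and a NAC protein described with its family.

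**Figure D2:**
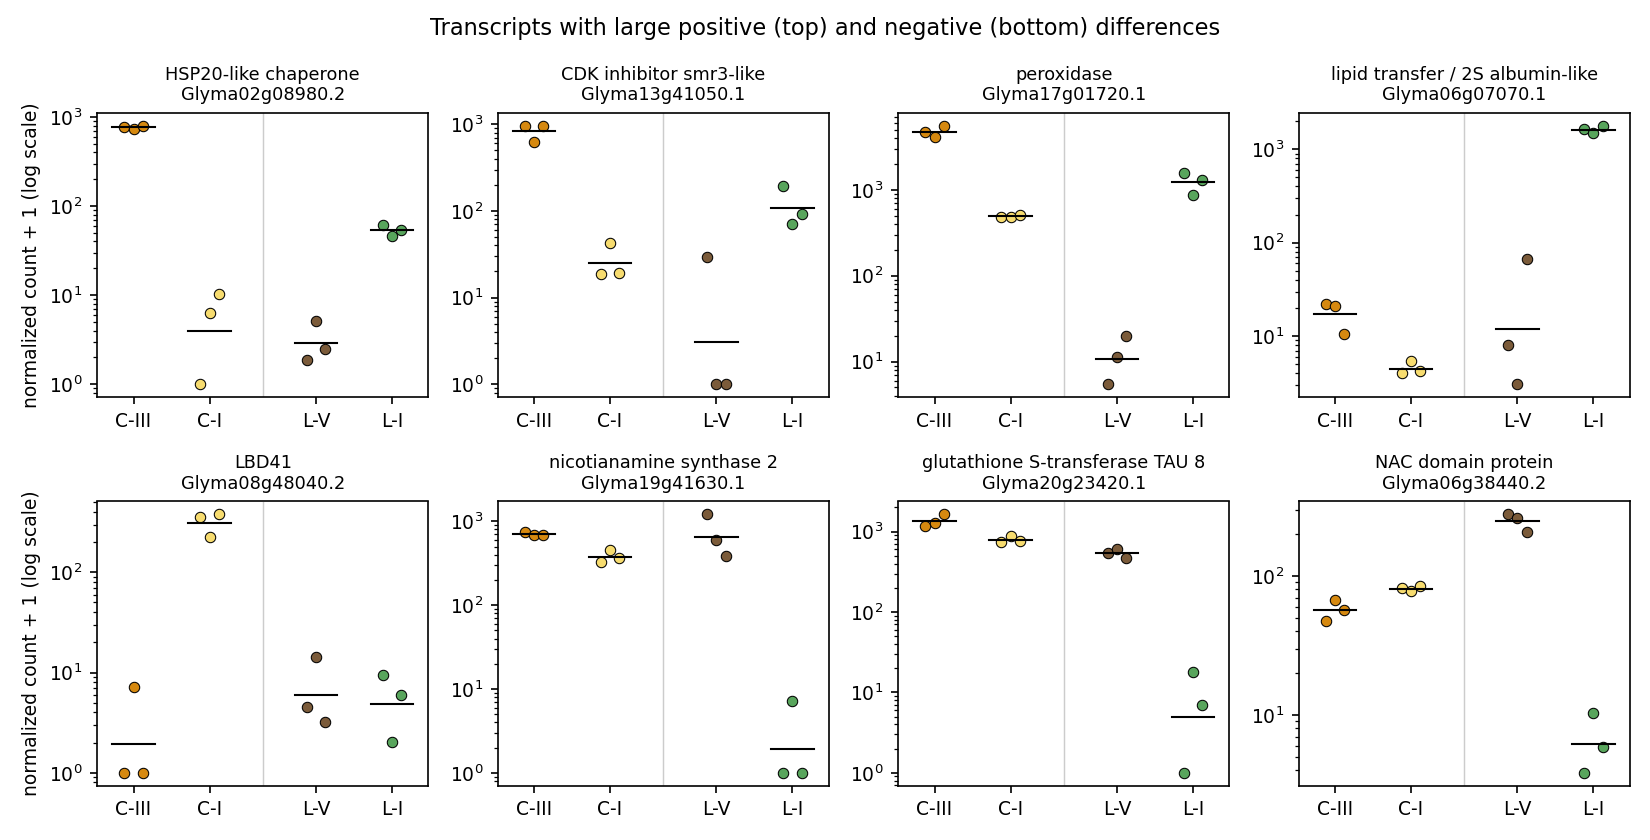
Normalized counts plus 1, on a log axis, of 8 transcripts in the 3 libraries of C-III, C-I, L-V and L-I (points) with the mean of the log values (bars). The top row holds positive differences, such as the HSP20-like transcript at 11.79 log2, and the bottom row negative ones, such as nicotianamine synthase 2 at -7.50 log2.

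Transcripts that fell in cotyledon while they rose in leaf included an enzyme of carbon metabolism. Pyruvate orthophosphate dikinase (Glyma17g02371.1), which interconverts pyruvate and phosphoenolpyruvate, had 1812, 2019 and 2447 normalized counts in C-III, against 7090.4, 7563 and 6809.6 in C-I. In leaf it had 4434, 2814 and 1887 in L-V, against 170.5, 938 and 427 in L-I. The 3 libraries of each stage did not overlap in either organ, and the difference was -4.59 ± 0.66 (SE) log2 (adjusted p = 0.000407).

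A SAUR-like auxin-responsive transcript (Glyma10g06440.1), of a family whose members are induced by the hormone auxin, had 13.03, 17.8 and 20.7 in C-III and 92.5, 70.3 and 60.2 in C-I. In leaf it had 109, 85.3 and 96.6 in L-V and 2.84, 32.4 and 11.8 in L-I, and the difference was -5.10 ± 0.79 (SE) log2 (adjusted p = 0.000728). An oxidoreductase (Glyma16g34580.2) and a light-regulated zinc finger protein (Glyma13g33987.1) moved in the same way, with differences of -4.50 and -4.09 log2. Uncoupling protein 5 (Glyma02g04620.1), a mitochondrial carrier, had 84.1, 84.97 and 73.4 in C-III and 457, 431 and 257 in C-I. It had 11.6, 27.8 and 51.98 in L-V and 17.05, 0 and 9.86 in L-I, where the stages overlapped, and its difference of -4.39 ± 1.13 (SE) log2 (adjusted p = 0.0194) was not called with a pseudocount of 0.1.

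Only 1804 transcripts (3.47%) had a 95% interval of the difference that lay within 1 log2 of 0, and 99 of these were called in the same direction in both organs. Among them calmodulin 5 (Glyma05g13900.1), a calcium sensor, had 2417, 2640.0 and 2951 normalized counts in C-III and 478, 344 and 391.8 in C-I. In leaf it had 2017, 2082 and 2711 in L-V and 477, 265 and 220.0 in L-I, and the interval of its difference ran from -0.99 to 0.67 log2. NPR1-like protein 3 (Glyma09g02430.1), known in Arabidopsis as a receptor for salicylic acid, rose by 2.23 log2 in cotyledon and 2.18 log2 in leaf, with an interval of -0.72 to 0.83 log2.

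A peptidase of family M48 (Glyma16g06130.1) rose by 3.33 log2 in cotyledon and 3.16 log2 in leaf. Shared falls of the same closeness were those of a light-harvesting protein of photosystem II (Glyma01g28810.1) and of a PsbP protein of the oxygen-evolving complex (Glyma10g29380.1). The PsbP transcript had 49.7, 39.98 and 59.03 in C-III and 439, 434 and 448 in C-I. It had 52.6, 72.98 and 56.4 in L-V and 443, 447 and 430.1 in L-I, with an interval of -0.95 to 0.37 log2.

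**Figure D3:**
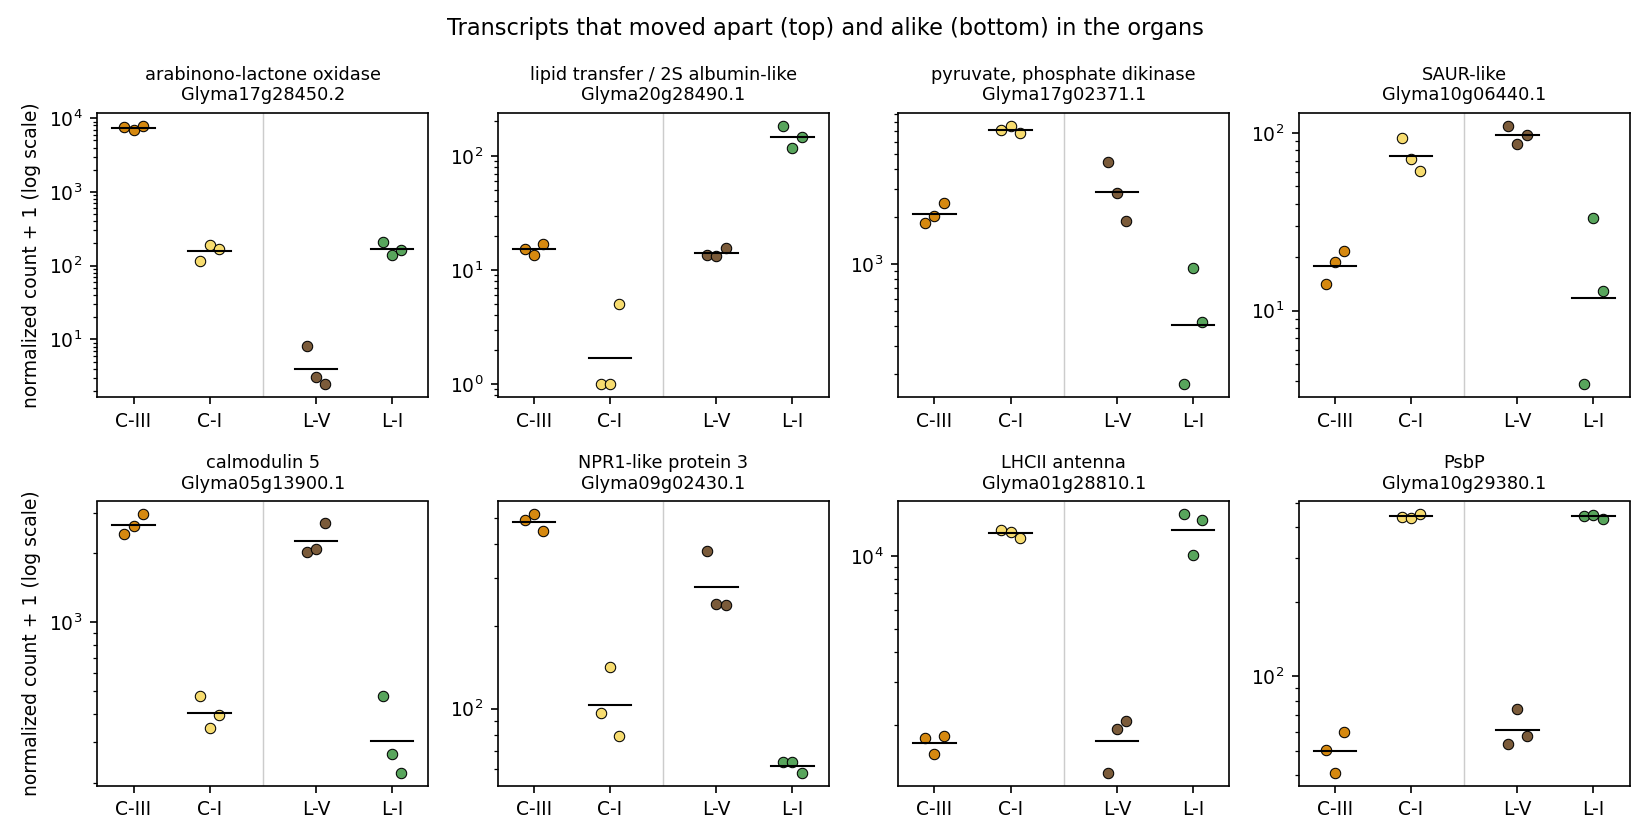
Normalized counts plus 1, on a log axis, in the 3 libraries of C-III, C-I, L-V and L-I (points) with the mean of the log values (bars). The top row holds transcripts called in opposite directions in the organs and the bottom row transcripts with a 95% interval of the difference within 1 log2 of 0, such as calmodulin 5 at -0.99 to 0.67 log2.

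Gene lists were drawn from annotation text and from the study's own lists. Annotation covered 4427 of the transcripts, mostly genes that the study had selected for changing in leaf or cotyledon in these same samples, and 21.9% of them had a positive and 10.9% a negative difference. The study's transporter lists, its NAC genes and its senescence-associated homologs were instead collected whether or not they changed. For the other lists, the direction within an organ, and with it the sign of the difference, is therefore no independent evidence. All shares are to be read against 21.9% and 10.9% as well as against 7.8% and 4.51%.

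Most photosynthesis transcripts fell in both organs. Of 48 light-harvesting antenna transcripts, 44 fell in cotyledon and 47 in leaf, with 5 negative differences (10.4%, against 10.9% of annotated transcripts) and 1 positive. Their median difference was -0.01 log2, and its sign varied with the processing (-0.34 to 0.22 log2). Of 95 photosystem core and oxygen-evolving transcripts, 92 fell in cotyledon and 94 in leaf, with 8 negative differences (8.42%), 1 positive and a median of -0.55 log2. In the study's photosynthesis list for leaf, 33 of 242 transcripts had a negative difference (13.6%) and 8 a positive one (3.31%), and the median changes were -3.31 log2 in cotyledon and -2.56 log2 in leaf.

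Lhcb3 (Glyma13g35800.1), an antenna protein of photosystem II, had 17.8, 19.7 and 12.8 normalized counts in C-III and 2785, 1692 and 2697 in C-I. In leaf it had 73.1, 177 and 240.1 in L-V and 2768, 2106 and 2779 in L-I. Both organs lost most of it and the cotyledon lost more, with a difference of -2.95 ± 0.52 (SE) log2 (adjusted p = 0.00176). The photosystem I antenna transcript Lhca6 (Glyma15g19810.1) differed by -2.69 ± 0.65 (SE) log2, photosystem II protein M (Glyma09g30171.1) by -3.85 ± 0.70 (SE) log2 and NDH dependent flow 6 (Glyma04g33290.1), needed for cyclic electron flow, by -3.55 ± 0.79 (SE) log2, with adjusted p of 0.0136, 0.00224 and 0.00818. Of 31 carbon fixation transcripts 21 fell in cotyledon and 23 in leaf, with 6 positive differences and 1 negative. Among them were carbonic anhydrases, which hydrate carbon dioxide. Carbonic anhydrase 2 (Glyma08g39510.2) had 82.9, 84.97 and 63.8 in C-III and 2.99, 26.4 and 2.01 in C-I. It had 54.3, 87.4 and 92.98 in L-V and 372, 457 and 393 in L-I, so it rose in cotyledon and fell in leaf (difference 5.89 ± 0.84 (SE) log2, adjusted p = 0.000399). Beta carbonic anhydrase 5 (Glyma15g06280.1) did the same, with a difference of 4.93 ± 0.61 (SE) log2. Of 13 chlorophyll synthesis transcripts 1 had a negative and none a positive difference, and of 8 chlorophyll breakdown transcripts 3 rose and 5 fell in both organs.

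Most transcripts of growth, cell wall and lipid transfer fell in both organs, and many had a positive difference. A fall in leaf itself favours a positive difference, and of all 8990 transcripts that fell in leaf, 2312 had one. Genes annotated because they fell in leaf share this, and its part in the shares below was not tested. The difference was positive for 10 of 18 arabinogalactan protein transcripts, 14 of 27 lipid transfer and 2S albumin-like transcripts and 9 of 21 GDSL lipase transcripts, with no negative difference in these 3 lists. It was positive for 15 of 31 kinesin, tubulin and cell division transcripts (2 negative), for 29 of 65 cellulose, xylan and secondary wall transcripts (5 negative) and for 14 of 44 pectin enzyme transcripts (1 negative). Their median differences lay between 1.53 and 2.62 log2. In each of these lists most transcripts fell in both organs, such as 14 of the 18 arabinogalactan and 35 of the 65 cellulose, xylan and secondary wall transcripts. The median changes lay between -2.96 and -1.95 log2 in cotyledon and between -6.11 and -4.04 log2 in leaf. The arabinogalactan and the cellulose, xylan and secondary wall lists share several genes, such as Glyma08g44210, and are not independent of each other. In these 6 lists many transcripts had a group with no library above 3 reads (18 of the 21 GDSL lipases), and with such groups at the limit of detection the medians lay between 1.52 and 2.28 log2. The markers of growing tissue and of xylem, whose genes (11 and 7) all stand in a gene list themselves, moved with these lists. The 8 xylem transcripts summed to 1.18 to 3.19 normalized counts in C-III and 56.2 to 82.6 in C-I, and to 0 to 0.732 in L-V and 165 to 428 in L-I, and their part in the result was not tested. A set of 16 transcripts chosen to mark seed reserves held mostly late embryogenesis abundant proteins, and its 13 genes all stand in a gene list. The set therefore does not show the course of the reserve genes themselves. It summed to 1299 to 1541 in C-III and 484 to 683 in C-I, and to 262 to 466 in L-V and 696 to 747 in L-I. These transcripts were thus higher late in cotyledon and lower late in leaf. The lipid transfer and 2S albumin-like list shared the positive sign of the difference but not this course, since 15 of its 27 transcripts fell and 5 rose in cotyledon. The part of this set in the differences of the lipid transfer list was not tested.

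Tubulin beta-1 (Glyma14g40380.1), a subunit of microtubules, had 168, 139.9 and 131 normalized counts in C-III and 179, 192 and 217 in C-I. In leaf it had 0, 3.08 and 3.66 in L-V and 253, 186 and 338 in L-I. It fell in leaf alone by the test, with a difference of 6.14 ± 0.65 (SE) log2 (adjusted p = 3.74e-05). Cellulose synthase 6 (Glyma02g08920.1), known in Arabidopsis for primary walls, had 20.1, 28.3 and 31.9 in C-III and 26.9, 45.7 and 40.9 in C-I. It had 11.6, 8.22 and 5.86 in L-V and 389, 436 and 472 in L-I, a difference of 5.07 ± 0.44 (SE) log2 (adjusted p = 8.58e-06). Positive differences were also those of arabinogalactan protein 14 (Glyma16g04471.1), fasciclin-like arabinogalactan 1 (Glyma08g44210.1) and galacturonosyltransferase-like 7 (Glyma10g01960.1), a pectin enzyme family, at 3.71, 4.67 and 4.69 log2.

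Not all wall genes followed. Expansin A4 (Glyma18g39850.1), which loosens walls, had 0, 1.94 and 0 in C-III and 281, 182 and 283 in C-I. It had 4.45, 4.11 and 4.39 in L-V and 45.5, 19.9 and 36.5 in L-I, and fell further in cotyledon, with a difference of -4.78 ± 0.66 (SE) log2 (adjusted p = 0.000315). Cellulose synthase-like B3 (Glyma12g31830.1) rose in leaf by 2.14 log2, changed by -0.77 log2 in cotyledon and differed by -2.91 ± 0.34 (SE) log2. Of 23 expansin and xyloglucan endotransglucosylase transcripts, 4 had a positive and 3 a negative difference.

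**Figure D4:**
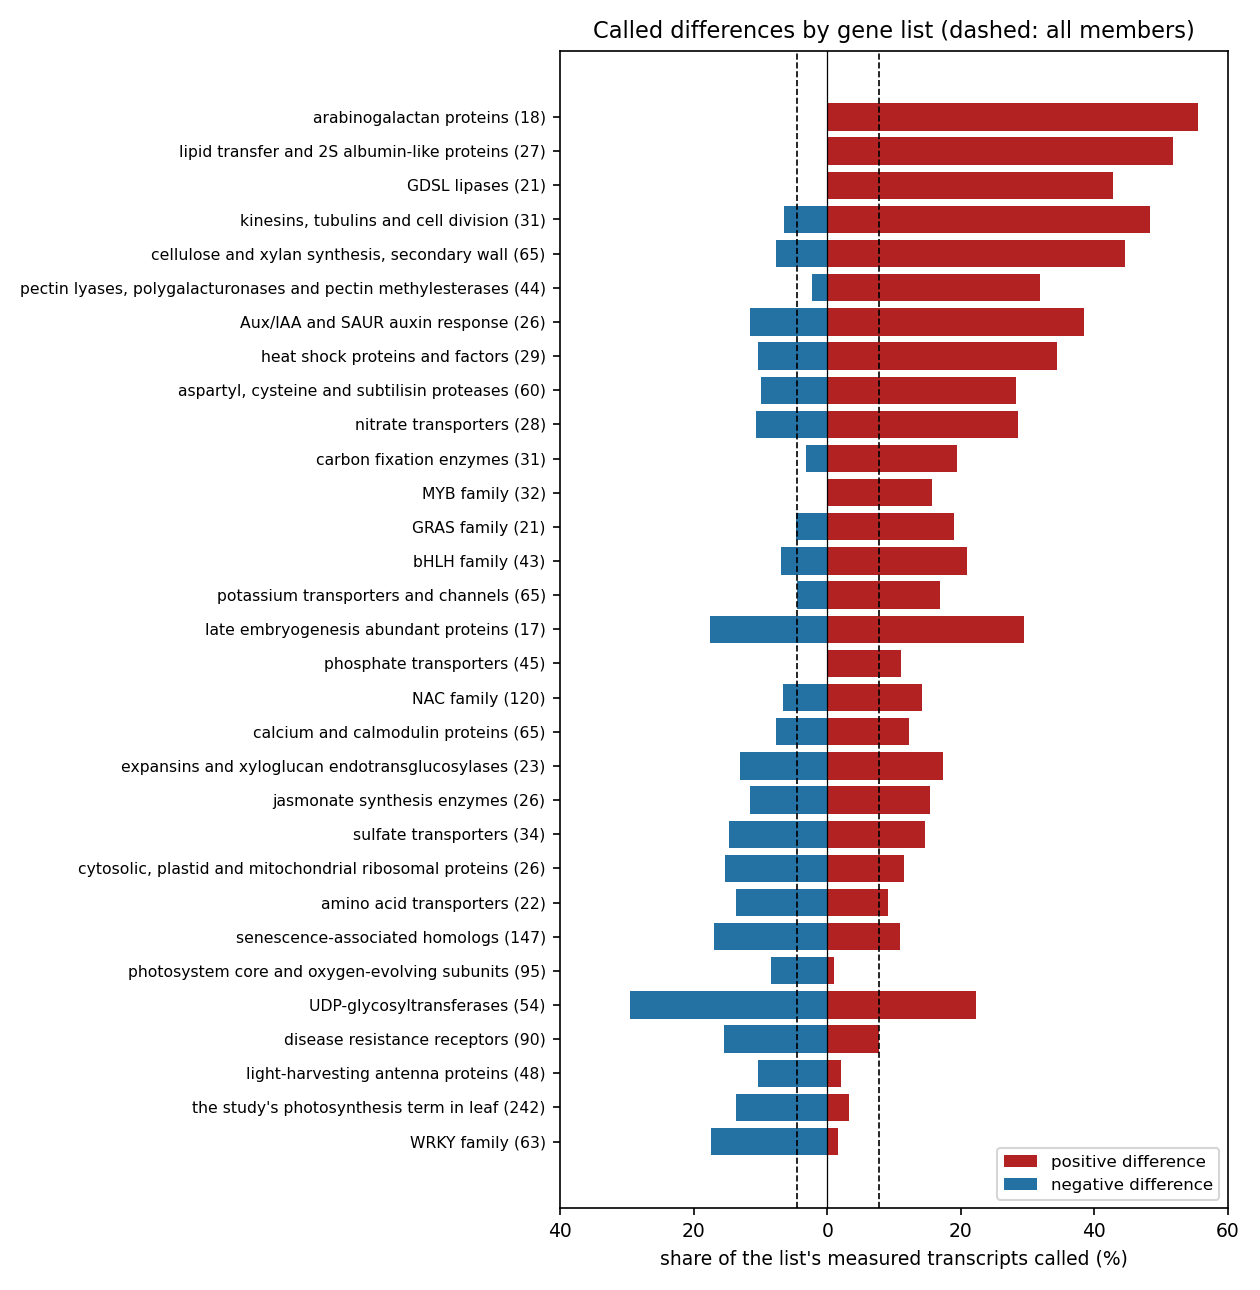
For each gene list with at least 17 measured transcripts (number in brackets), the share of transcripts with a called positive difference (red, to the right) and a called negative difference (blue, to the left), in percent. Dashed lines mark the shares over all transcripts, 7.8% and 4.51%, and the arabinogalactan proteins reach the highest positive share, 55.6%.

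Genes of protein and starch breakdown showed members on both sides. Of 60 protease transcripts, 17 had a positive and 6 a negative difference, with 20 rises and 23 falls in cotyledon and 22 rises and 35 falls in leaf. A subtilase (Glyma17g35490.1), a serine protease, had 1857, 1707 and 1649.6 normalized counts in C-III and 14.9, 2.64 and 8.83 in C-I. In leaf it had 67.7, 114 and 135 in L-V and 19.9, 8.36 and 29.6 in L-I. It rose in both organs, by 5.21 ± 0.71 (SE) log2 more in cotyledon (adjusted p = 0.000278). A cysteine proteinase homolog (Glyma19g41120.1) had 569.7, 559 and 534 in C-III and 1979, 1342 and 1738 in C-I. It had 387, 314 and 247 in L-V and 79.6, 132 and 98.6 in L-I, and so fell in cotyledon and rose in leaf (difference -3.19 ± 0.35 (SE) log2, adjusted p = 4.6e-05). Serine carboxypeptidase-like 33 (Glyma07g36500.4) rose in leaf by 4.30 log2 and differed by -3.13 ± 0.64 (SE) log2. Of 5 transcripts of starch-degrading enzymes, 4 rose and 1 fell in cotyledon, 3 rose and 1 fell in leaf, and 1 had a positive and 1 a negative difference. The one that fell in both organs was beta-amylase 5 (Glyma06g45700.1), which had 43.8, 36.9 and 46.3 in C-III and 182, 106 and 206 in C-I. It had 4.45, 8.22 and 7.32 in L-V and 406, 1729 and 1556 in L-I, a fall in both organs that was 5.22 ± 0.65 (SE) log2 deeper in leaf (adjusted p = 0.00014).

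Nitrogen genes differed in both directions. Of 13 nitrogen assimilation transcripts 4 rose and 8 fell in cotyledon and 4 rose and 9 fell in leaf, with 1 positive and 3 negative differences. Of 9 ammonium transporter transcripts 5 rose in each organ, with 1 positive and 1 negative difference, and of 28 nitrate transporter transcripts 8 had a positive and 3 a negative difference. Nitrate transporter 1.7 (Glyma18g16490.1), known in Arabidopsis to load nitrate from older leaves into the phloem, had 10683, 10887 and 16716 normalized counts in C-III and 433, 1231 and 403 in C-I. In leaf it had 8526, 2718 and 2153 in L-V and 17.05, 10.5 and 3.95 in L-I. It rose in both organs without overlap, by 4.38 log2 in cotyledon and 8.51 log2 in leaf (difference -4.13 ± 0.79 (SE) log2, adjusted p = 0.00313). Another gene annotated as nitrate transporter 1.7 (Glyma01g04830.1) also had a negative difference, -2.36 ± 0.59 (SE) log2.

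Asparagine synthase 1 (Glyma14g37440.1), which makes the amide that carries nitrogen between organs, had 327, 357 and 405 in C-III and 89.6, 154 and 147 in C-I. It had 675, 329 and 884 in L-V and 11.4, 15.7 and 27.6 in L-I, a difference of -3.50 ± 0.53 (SE) log2 (adjusted p = 0.000621). Ammonium transporter 1;1 (Glyma10g26690.1), which takes up ammonium, had 1042, 1279 and 943 in C-III and 86.6, 127 and 55.4 in C-I. It had 4415, 2243 and 2439 in L-V and 65.4, 32.4 and 67.1 in L-I, and rose more in leaf (difference -2.11 ± 0.50 (SE) log2, adjusted p = 0.0127), a call that library quality weights ended (difference -1.28 log2). Nitrate transporter 1.1 (Glyma11g03430.1), an uptake carrier and nitrate sensor in Arabidopsis, went the other way. It had 159.9, 133 and 100.5 in C-III and 8.96, 10.5 and 7.63 in C-I. It had 8.02, 61.7 and 54.2 in L-V and 45.5, 103 and 77.9 in L-I, a difference of 4.91 ± 0.82 (SE) log2 (adjusted p = 0.00121).

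Sulfate and potassium transporters held called differences of both signs, and phosphate transporters held positive ones only. The 10 phloem marker transcripts summed to 606 to 844 normalized counts in C-III and 1181 to 1382 in C-I, and to 217 to 332 in L-V and 1874 to 2506 in L-I. The 12 transcripts chosen to mark root or nodule were matched by the names nodulin or leghemoglobin alone, which does not show that such tissue was present. They were higher late, at 3495 to 4059 in C-III and 1120 to 1514 in C-I, and at 2434 to 2501 in L-V and 767 to 969 in L-I. The part of both marker lists in the transporter results was not tested. Of 34 sulfate transporter transcripts, 22 rose in cotyledon and 14 in leaf, with 5 positive and 5 negative differences (14.7% each). Over all transcripts the shares were 7.8% positive and 4.51% negative, and over annotated ones 21.9% and 10.9%. Sulfate transporter 3;1 (Glyma03g31310.1) had 56.9, 55.5 and 84.6 normalized counts in C-III and 0, 0.879 and 2.01 in C-I. In leaf it had 73.9, 54.5 and 81.3 in L-V and 51.1, 64.8 and 28.6 in L-I, where the stages overlapped, and the difference was 4.61 ± 0.61 (SE) log2 (adjusted p = 0.000221). Another 3;1 gene (Glyma02g16365.1) differed by 2.35 ± 0.45 (SE) log2 in the same direction. Sulfate transporter 1;3, a phloem carrier in Arabidopsis, differed the other way in both of its called transcripts, by -3.45 ± 0.56 (SE) log2 (Glyma06g11140.1) and -2.55 ± 0.41 (SE) log2 (Glyma06g11140.2).

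A pair of genes annotated as K+ transporter 1, a potassium channel, moved against each other in cotyledon. Glyma06g07470.1 had 66.3, 71.1 and 81.4 in C-III and 0, 0 and 2.81 in C-I. It had 143, 54.5 and 18.3 in L-V and 25.6, 44.9 and 44.4 in L-I, where the stages overlapped, and a difference of 5.07 ± 0.91 (SE) log2 (adjusted p = 0.00212). Glyma05g08230.1 had 1.18, 7.77 and 1.60 in C-III and 86.6, 39.5 and 74.7 in C-I. It had 37.4, 32.9 and 18.3 in L-V and 5.68, 19.9 and 8.88 in L-I, where the stages also overlapped, and a difference of -5.53 ± 0.81 (SE) log2 (adjusted p = 0.000499). Since reads that matched several transcripts had been discarded, each copy is seen only through the reads unique to it. Of 65 potassium transporter and channel transcripts 11 had a positive (16.9%) and 3 a negative difference (4.62%). Of 45 phosphate transporter transcripts 5 had a positive difference (11.1%) and none a negative one. Both positive shares lay between that of all transcripts (7.8%) and that of annotated ones (21.9%). Phosphate transporter 4;2 (Glyma07g17440.1) had at most 3.61 in any C-III or C-I library. In leaf it had 3.56, 0 and 0 in L-V and 301, 303 and 255 in L-I, a difference of 6.75 ± 1.09 (SE) log2 (adjusted p = 0.000976) that was not called with a pseudocount of 0.1.

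Most WRKY transcripts and some NAC transcripts rose in both organs. Among all 4427 annotated transcripts, 1428 rose in cotyledon and 1560 in leaf, 1111 of them in both. Of 63 WRKY transcripts 48 rose in cotyledon and 52 in leaf, 44 of them in both, and 11 had a negative difference (17.5%) against 1 positive (1.59%). A WRKY family transcript (Glyma07g39250.2) had 50.9, 52.8 and 30.3 normalized counts in C-III and 35.8, 85.2 and 17.7 in C-I, which overlapped. It had 114, 76.1 and 198 in L-V and 8.52, 5.23 and 11.8 in L-I, a difference of -3.54 ± 0.72 (SE) log2 (adjusted p = 0.00499). The single positive WRKY, WRKY11 (Glyma09g06980.1), differed by 1.85 ± 0.45 (SE) log2.

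Of 120 NAC transcripts 54 rose in cotyledon and 45 in leaf, 31 in both, and none fell in cotyledon while 7 fell in leaf. The NAC share that rose in both organs was close to that of annotated transcripts (1111 of 4427) and above that of all transcripts (3080 of 52026). Since the study took its NAC genes from the genome annotation, changing or not, all transcripts are the closer background. Of the 120, 17 had a positive and 8 a negative difference. The NAC domain protein 2 transcript Glyma06g38440.2 had 46.2, 66.4 and 55.8 in C-III and 80.6, 76.5 and 83.5 in C-I. In leaf it had 276, 260.1 and 206 in L-V and 2.84, 9.41 and 4.93 in L-I, so it rose in leaf alone by the test (difference -5.84 ± 0.47 (SE) log2, adjusted p = 4.39e-06). Its namesake Glyma13g35560.1 rose in both organs, by 3.86 log2 in cotyledon and 5.94 log2 in leaf (difference -2.08 ± 0.44 (SE) log2). NAC domain protein 73 (Glyma07g32250.1) had 233, 274 and 242 in C-III and 35.8, 15.8 and 12.04 in C-I. It had 18.7, 32.9 and 49.8 in L-V and 34.1, 31.4 and 51.3 in L-I, with overlap, and a difference of 3.91 ± 0.58 (SE) log2 (adjusted p = 0.000509). The GRAS protein SCARECROW-like 8 (Glyma10g37640.1) rose by 4.86 log2 in cotyledon and 2.32 log2 in leaf, a difference of 2.53 ± 0.44 (SE) log2 (adjusted p = 0.00154).

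Among 26 auxin response transcripts, 10 had a positive and 3 a negative difference. The Aux/IAA repressor Glyma20g35280.1 had 35.5, 53.9 and 54.2 normalized counts in C-III and 44.8, 59.8 and 54.99 in C-I, which overlapped. It had 1.78, 18.5 and 24.9 in L-V and 480.2, 851 and 405 in L-I, a difference of 5.45 ± 0.87 (SE) log2 (adjusted p = 0.000912). An auxin-responsive GH3 transcript (Glyma16g03011.2), of enzymes that join hormones to amino acids, differed by -2.45 ± 0.53 (SE) log2.

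Defense and secondary metabolism held transcripts on both sides. Of 90 disease resistance transcripts 59 rose in cotyledon and 68 in leaf, and 14 had a negative and 7 a positive difference. The NB-ARC transcript Glyma01g08640.1 rose in leaf by 4.10 log2 and differed by -3.63 ± 0.72 (SE) log2, while the dirigent-like transcript Glyma19g33330.1 had 1019.8, 1019.6 and 1661 in C-III against 11.9, 51.9 and 19.3 in C-I and differed by 7.09 ± 0.85 (SE) log2. UDP-glycosyltransferases, which attach sugars to hormones and flavonoids, had the highest share of negative differences among the lists of at least 17 transcripts, 16 of 54, beside 12 positive ones. UDP-glucosyl transferase 78D2 (Glyma13g32910.1), a flavonoid enzyme in Arabidopsis, had 34.3, 60.3 and 36.7 in C-III and 38.8, 49.2 and 39.7 in C-I. It had 5.35, 1.03 and 2.93 in L-V and 227, 170.3 and 140.1 in L-I, a difference of 5.58 ± 0.56 (SE) log2 (adjusted p = 2.66e-05). Another UDP-glycosyltransferase (Glyma08g26830.1) rose in leaf by 5.44 log2 and differed by -4.07 ± 0.51 (SE) log2.

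A chalcone and stilbene synthase family transcript (Glyma19g27930.1), of the family that opens flavonoid synthesis, fell in both organs. It had 69.9, 63.9 and 41.5 normalized counts in C-III and 2251, 2051 and 1642 in C-I. It had 139, 37.00 and 53.4 in L-V and 18999, 11327 and 11066 in L-I, a fall that was 2.57 ± 0.56 (SE) log2 deeper in leaf (adjusted p = 0.00733). Heat shock proteins and factors had 10 positive and 3 negative differences among 29, and heat shock protein 70 (Glyma18g52480.1) rose in both organs but by 1.57 log2 in cotyledon and 3.55 log2 in leaf (difference -1.98 ± 0.38 (SE) log2, adjusted p = 0.00341). Of 17 late embryogenesis abundant transcripts, 5 had a positive (29.4%) and 3 a negative difference (17.6%), with a median difference of 0.96 log2. Among the negative ones, a dehydrin (Glyma17g24193.3), of a family that protects drying cells, had 396, 436 and 362 in C-III and 875, 794 and 778 in C-I. It had 247, 271 and 245 in L-V and 11.4, 44.9 and 43.4 in L-I, a difference of -4.16 ± 0.54 (SE) log2 (adjusted p = 0.000197). Among the study's soybean homologs of Arabidopsis senescence-associated genes, 16 of 147 transcripts had a positive and 25 a negative difference, with 36 rises and 26 falls in cotyledon and 31 rises and 20 falls in leaf.

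Both signs were found among 43 bHLH transcripts (9 positive, 3 negative), 65 calcium and calmodulin transcripts (8 positive, 5 negative), 26 jasmonate synthesis transcripts (4 positive, 3 negative), 21 GRAS transcripts (4 positive, 1 negative), 22 amino acid transporter transcripts (2 positive, 3 negative) and 26 ribosomal protein transcripts (3 positive, 4 negative). The 32 MYB transcripts had 5 positive differences (15.6%) and no negative one. In none of these lists was the positive share above the 21.9% of annotated transcripts, the highest being 20.9% for bHLH. Negative shares reached at most 15.4%, for ribosomal proteins, against 10.9% of annotated transcripts. Of the 22 amino acid transporter transcripts, which carry exported nitrogen, 15 rose in both organs.

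**Figure D5:**
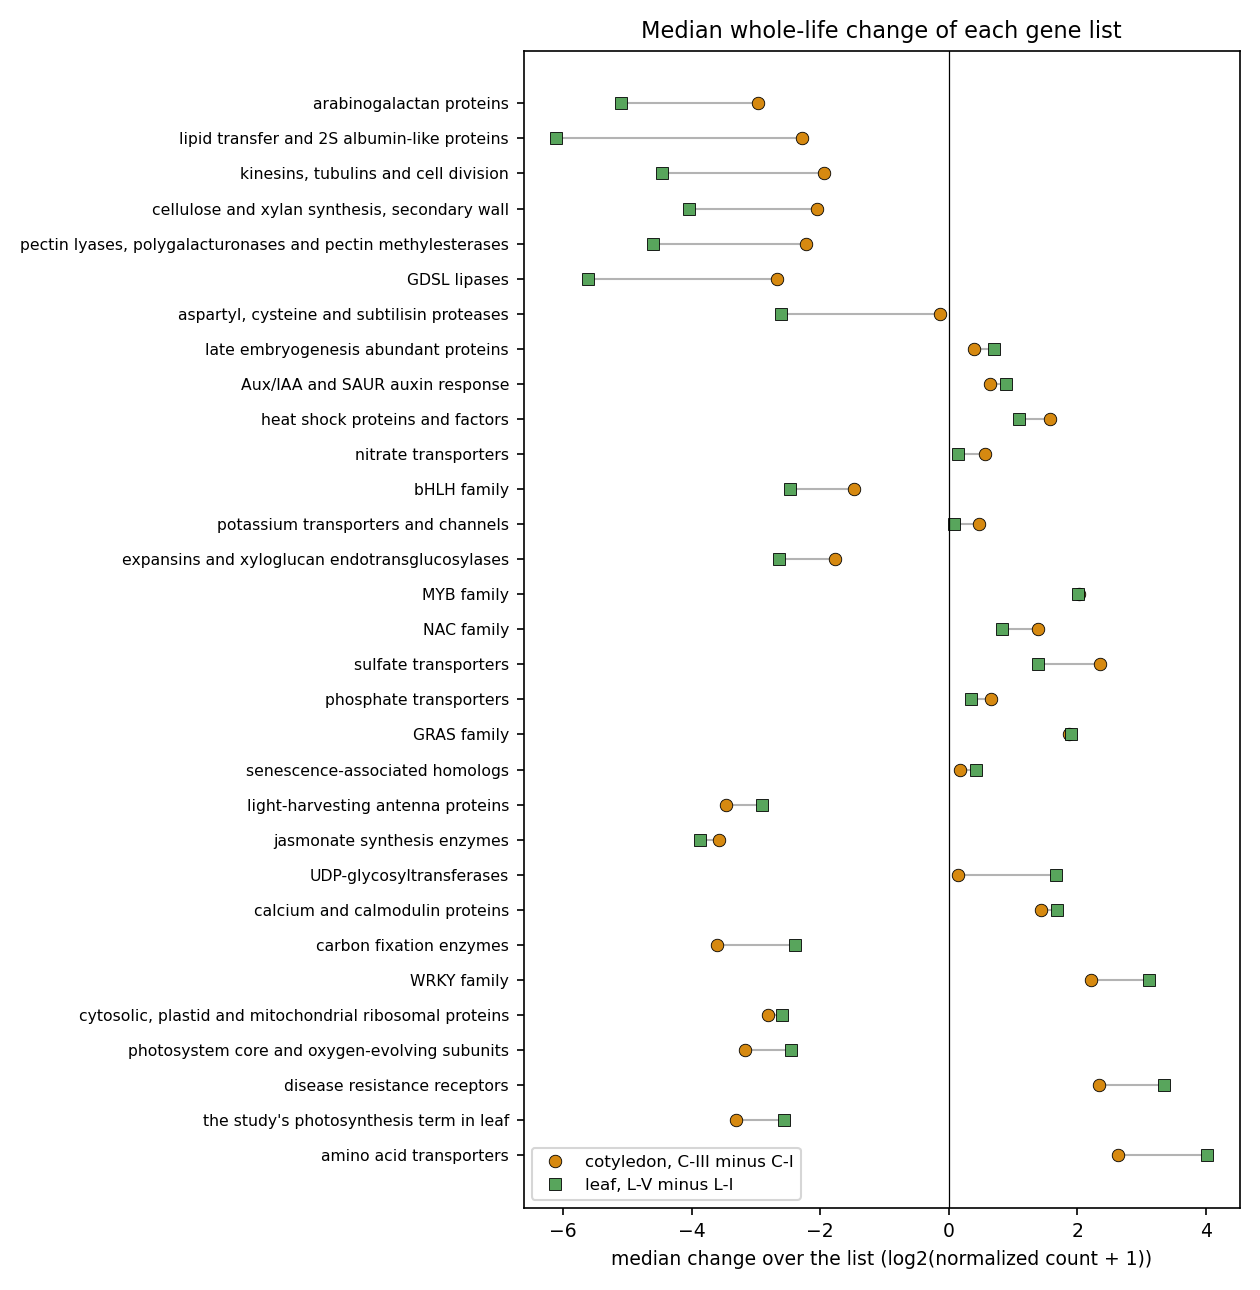
Median change over the transcripts of each gene list with at least 17 measured transcripts, as a difference of log2(normalized count + 1), in cotyledon (C-III minus C-I, circles) and in leaf (L-V minus L-I, squares). Lists run from the highest median difference at the top, such as arabinogalactan proteins at -2.96 in cotyledon and -5.10 in leaf, to the lowest at the bottom.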

How the data were processed

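RNA-seq of soybean cotyledons and leaves was used, with 12 libraries of C-III, C-I, L-V and L-I in the tests. The authors matched reads to the Gmax_189 transcripts with Bowtie, kept reads that matched 1 transcript with at most 1 mismatch, scaled them with DESeq 1.0 and deposited variance-stabilized log2 values in a table per organ. These log2 values were turned back into normalized counts, and each value was a whole multiple of the count of 1 read (tolerance 0.05, 100% of values), which gave the reads per library.

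The difference of differences was fitted over all 52026 transcripts on log2(normalized count + 1) with limma 3.58.1 (R 4.3.3, trend in the prior variance). A call needed an adjusted p below 0.05 (Benjamini-Hochberg) and over 1.5 log2. Groups with no library above 3 reads were treated as at the limit of detection. Libraries came from different individual plants. Alternatives covered pseudocount, filters, scaling, weights, left-out libraries and a replicate block. The members and gene lists were chosen with earlier results of these data known. Named transcripts were taken among annotated ones with a called difference, at least 1 library above 3 reads in each group, no overlap of stages in at least 1 organ and a group mean of at least 50. They were the 8 largest differences of each sign, the 5 leading transcripts of each opposite direction and up to 2 of each sign per list, and beside them the 4 leading transcripts of each shared direction with a 95% interval within 1 log2. Not each one chosen is named. In simulated data on 52026 transcripts, 17% of 4-fold and 97% of 16-fold changes were called in the right direction, with 3 false calls among 51826 unchanged. The changed transcripts, 100 of each size, were well-counted ones, changed in C-III alone, and the spread was assumed. The rates therefore do not give the power or error rate of the test on the real data, least of all for low transcripts. The authors' own fold changes and p-values were not used. Tables were made with pandas 2.3.3 and figures with matplotlib 3.10.9.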

Additional observations from a re-analysis of the deposited data

Results flagged for a closer look

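The changes of the organs differed from each other, by the limma test of the difference itself, in 4056 transcripts with a higher change in cotyledon and 2347 with a higher change in leaf. In 379 transcripts the cotyledon rose while the leaf fell, and in 86 the cotyledon fell while the leaf rose. The 5 transcripts that led each opposite direction were ranked by the smaller of their changes in the organs. A called difference was a condition for being ranked, so their calls add no support. Those that rose in cotyledon and fell in leaf were Glyma02g08980.2 (difference of 11.79 log2), Glyma17g28450.2 (11.01), Glyma13g41050.1 (10.18), Glyma02g47310.1 (8.96) and Glyma09g04161.1 (8.96). The leaders that fell in cotyledon and rose in leaf were Glyma10g06440.1 (-5.10), Glyma17g02371.1 (-4.59), Glyma16g34580.2 (-4.50), Glyma02g04620.1 (-4.39) and Glyma13g33987.1 (-4.09). Groups of 3 libraries were too small for a test of single libraries that stand apart.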

How the results depend on the processing

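The test was repeated under 26 alternatives, and no named transcript with a called difference changed sign. The 8 named without a called difference lay near 0, and some changed sign, such as calmodulin 5 (-0.56 to 0.07 log2). Calls were fewest, 4068 of 32222 tested, where a transcript had to be above the minimum in all 6 columns of each organ. They were most, 11119, with library quality weights, against 6403 of 52026 in the main fit. A pseudocount of 0.1 gave 4723 calls, no filter 7662 of 66777 tested, all 24 libraries fitted together 7202 and the deposited log2 scale 6320. Scaling to library totals gave a median change of 0.23 log2 in cotyledon and 0.24 log2 in leaf, against -0.01 log2 in each. With the replicate number as a block 5550 differences were called, of which 5249 were among the 6403, and same-numbered libraries did not deviate together (correlations of -0.0477 to 0.0382), so the numbers do not pair the samples. Leaving out each library in turn gave 3058 to 4261 positive and 1707 to 2686 negative differences, 5711 to 6924 rises and 7118 to 8037 falls in cotyledon, and 4940 to 6288 rises and 8143 to 9053 falls in leaf. In the same fits 307 to 386 transcripts rose in cotyledon and fell in leaf, 67 to 101 did the opposite, 2757 to 3172 rose in both and 4404 to 4798 fell in both.

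Some settings moved counts further. Quality weights gave 6649 positive and 4470 negative differences. Demanding all 6 columns left 32222 transcripts to test. It gave 2373 positive differences, 3404 rises and 3962 falls in cotyledon, and 2595 rises and 3853 falls in leaf. It also gave 159 transcripts that rose in cotyledon and fell in leaf, 40 that did the opposite, and 1392 that rose and 1899 that fell in both. A mean level of at least 10 left 28633 transcripts to test. It gave 4376 rises and 4499 falls in cotyledon, 3546 rises and 4753 falls in leaf, 207 and 45 transcripts of opposite direction and 2882 that fell in both. Counts under these filters come from fewer transcripts than the main counts and are not on the same base. A pseudocount of 5 gave 3635 rises and 5978 falls in leaf, 176 and 43 transcripts of opposite direction and 2982 that fell in both. The adjusted p alone, with no minimum size, gave 599 and 221 transcripts of opposite direction. The median difference changed sign in at least 1 setting for some lists, among them NAC transcripts (-0.12 to 0.58 log2), starch-degrading enzymes (-1.19 to 1.13 log2), chlorophyll breakdown enzymes (0.77 log2, as low as -0.085 log2), carbon fixation enzymes (-1.42 to 0.51 log2) and ammonium transporters (-2.10 to 0.31 log2). What moved these medians was not tested.

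Of 117 named transcripts with a called difference, 86 kept the call in every alternative run and 31 lost it in at least 1, of which 23 lost it on leaving out a library. The depth of 1852184 to 20839594 reads limits transcripts of low level, whose standard error had a median of 0.900 log2 in the lowest 25% of levels and 0.433 log2 in the highest 25%.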

Other observations

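The stages between the end points, which no comparison above uses, show when named transcripts moved (mean ± SD of normalized counts, n = 3 libraries each). The D-arabinono-1,4-lactone oxidase transcript (Glyma17g28450.2) averaged 159 ± 38.5 in C-I, 1107 ± 388 in C-II and 7481 ± 459 in C-III. In leaf it averaged 171 ± 36.2 in L-I, 35.6 ± 9.58 in L-II, 8.12 ± 8.76 in L-III, 4.02 ± 1.63 in L-IV and 3.55 ± 3.11 in L-V. Pyruvate orthophosphate dikinase (Glyma17g02371.1) averaged 7154 ± 381 in C-I, 2871 ± 468 in C-II and 2093 ± 324 in C-III, and 512 ± 391, 1897 ± 639.7, 2472 ± 1061, 2715 ± 175 and 3045 ± 1289 in L-I to L-V.

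Some transcripts peaked between the end points, so that the whole-life change left out part of their course. Asparagine synthase 1 (Glyma14g37440.1) averaged 130.1 ± 35.3 in C-I, 2602 ± 736 in C-II and 363 ± 39.5 in C-III, with its highest mean in the middle stage. In leaf its highest mean was 1258 ± 376 in L-II, and it averaged 18.2 ± 8.42 in L-I, 315 ± 229.9 in L-III, 337 ± 297 in L-IV and 629 ± 280.2 in L-V. The NAC domain protein 2 transcript Glyma06g38440.2, whose end points did not differ by the test in cotyledon, averaged 80.2 ± 3.54 in C-I, 218 ± 31.7 in C-II and 56.1 ± 10.1 in C-III. In leaf it averaged 5.73 ± 3.35 in L-I, 98.6 ± 17.2 in L-II, 139.8 ± 29.4 in L-III, 175 ± 22.7 in L-IV and 248 ± 36.5 in L-V. Nitrate transporter 1.7 (Glyma18g16490.1) averaged 689 ± 469.9 in C-I, 7602 ± 969 in C-II and 12762 ± 3426 in C-III, and its L-V mean of 4466 ± 3528 carried a wide spread between libraries.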
